A study of Eutrema salsugineum with 2 samples.

Results

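Annotated genes with reads only in YK were the 83 genes of the reference annotation of Eutrema salsugineum that had no read in the SH library and at least 6 reads in the YK library. The deposited table lists 17888 genes with reads, of which 17731 are annotated. The read limits were met by 94 annotated genes, or 1.03% of the 9163 annotated genes with at least 6 YK reads, and the rule set aside 11 of these, which had 7 to 83 YK reads. Because the reads of both libraries chose these genes, their difference between SH and YK is described here and not tested. E. salsugineum is a salt-tolerant crucifer, and the libraries came from the inbred accessions SH, from Shandong in China, and YK, from the Yukon in Canada, with seed taken from individual selfed plants. Both were grown well-watered under a 12 h photoperiod with day and night temperatures of 22 and 20 °C, and whole rosettes were harvested at 4 weeks in the middle of the dark period, with no other treatment. The methods describe 4 biological replicates of 5 rosettes, whereas the table holds 1 column of reads for each accession, so no difference in reads can be set against a second library and the values describe these pools. The genome to which both libraries were aligned is that of SH. Reads on genes summed to 482275 in SH and 431705 in YK, and the median-of-ratios size factors were 1 for both, so reads were compared as deposited. Scaling by total reads would instead put the SH factor at 1.12 times that of YK.

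Genes that are read in one accession and not in the other can lack the sequence in one genome, but the 83 loci are annotated on the SH genome itself. Such loci can be carried without being transcribed, or be transcribed too weakly for the depth. Counts of RNA reads do not tell these apart. An A. thaliana best hit was available for 14 of the 83 genes, since the gene names could be read for 1998 of the 17888 genes only. A further gene, Thhalv10026707m.g, had an entry without a hit, and 68 had no entry, so the genes with a known hit are no sample of the set. The 14 hits were 14 different A. thaliana genes, and no other named gene in the table had one of them as its hit. They do not form a pathway. In A. thaliana they belong to the cystatin/monellin superfamily and to families of protein phosphatases, sulfotransferases, acid phosphatases, cell wall enzymes, phenylpropanoid enzymes and vesicle sorting proteins. Of 21 tissue markers fixed for a check of the rosette label, 2 had a hit in the named part of the table, both of them root genes. The PYK10 hit Thhalv10020507m.g, a root beta-glucosidase, had no SH read and 1 YK read, and the IRT1 hit Thhalv10000941m.g, a root iron transporter, had 2 and 1. The 10 leaf markers had no named gene, so the rosette label was not checked further.

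The gene with the most reads was Thhalv10015718m.g, whose hit AT5G56920 is a cystatin/monellin superfamily gene. Cystatins, a group within this superfamily, are small proteins that block papain-like cysteine proteases. In plants they act in the control of protein breakdown and in defense against insects. Whether Thhalv10015718m.g encodes such an inhibitor was not tested. The gene lies on scaffold 2 (9629678 to 9632276) and had no SH read and 48 YK reads, a YK level of 111 RPM (reads in every 1000000 reads on genes, interval 82.0 to 147). Each RPM interval is the 95% Clopper-Pearson interval of the share of the library and covers counting error only. Since 0 reads leave room for 3 counts, or 6.22 RPM in SH, every fold here divides the YK reads as deposited by this floor of 3 counts, and by it the gene was at least 16-fold higher in YK. The same value was 17.9 with scaling by total reads and 15.7 with TMM factors. In whole rosettes, fewer cells that express a gene and less RNA per cell cannot be told apart. These folds leave out the counting error of the YK reads, so they exceed the bound that counting error sets. For this gene the lower 95% bound of the ratio of YK to SH was 12.5. Here and below this bound is the lower end of a 2-sided 95% interval. The floor of 3 counts is a fixed setting and not an end of such an interval. Thhalv10015718m.g is the only one of the 83 genes with a primer pair in the sources used here, and the pair is shown because it marks the part of this transcript that was chosen for amplification, each primer 5′ to 3′ and in lower case throughout.
Thhalv10015718m.g forward primer: accagctccatttggattgaaa
Thhalv10015718m.g reverse primer: ggagtcccctttgtcttcgat
The single other detected gene within 10 kb, Thhalv10013022m.g, had 1 SH and 0 YK reads.

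Among the other genes with at least 10 YK reads, 4 had an A. thaliana hit. Thhalv10004207m.g, on scaffold 6 (8046786 to 8049417), had no SH read and 27 YK reads, or 62.5 RPM (interval 41.2 to 91.0). It was at least 9-fold higher in YK against the floor, with a lower 95% bound of the ratio of 6.83. Its hit AT5G36250 is a protein phosphatase 2C gene, a family of serine and threonine phosphatases of which some members act in abscisic acid and stress signalling. Thhalv10004760m.g, on the same scaffold from 6863915 to 6864906, had no SH read and 17 YK reads, or 39.4 RPM (interval 22.9 to 63.0). It was at least 5.67-fold higher in YK against the floor, with a lower 95% bound of the ratio of 4.13. Its hit AT2G03750 is a sulfotransferase gene; such enzymes move a sulfate group from PAPS to small molecules, among them glucosinolate precursors and hormones. All 3 detected genes within 10 kb of it had reads in both libraries, among them Thhalv10004726m.g with 9 SH and 19 YK reads and Thhalv10004640m.g with 16 and 5.

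Thhalv10025999m.g had no SH read and 13 YK reads, or 30.1 RPM (interval 16.03 to 51.49). It was at least 4.33-fold higher in YK against the floor, with a lower 95% bound of the ratio of 3.05. It lies on scaffold 1 from 4619909 to 4621477, and its hit AT4G29270 is an acid phosphatase of the class that includes the vegetative storage proteins. The neighbouring Thhalv10026000m.g, 515 bp away, had 25 SH and 34 YK reads. The other detected genes within 10 kb each had a read in one library only, Thhalv10025361m.g with 0 and 1 and Thhalv10024980m.g with 1 and 0. Thhalv10022919m.g, on scaffold 11 (882143 to 882721), had no SH read and 12 YK reads, or 27.8 RPM (interval 14.4 to 48.6). It is the shortest locus of the 83 at 579 bp and the densest by length, with 20.7 YK reads per kb of locus, ahead of Thhalv10015718m.g with 18.5. Its hit is AT2G18210. Within 10 kb lies Thhalv10022844m.g with 56 SH and 151 YK reads.

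The other 9 genes with a hit had 6 to 9 YK reads, and their reads do not differ from each other beyond counting error: the lowest, 6 reads, is 13.9 RPM with an interval of 5.10 to 30.3, and the highest, 9 reads, is 20.8 RPM with an interval of 9.53 to 39.6. A pair of them have hits of the cell wall and growth. Thhalv10003088m.g, with the hit XTH16, had no SH read and 8 YK reads; XTH enzymes cut and rejoin xyloglucan chains and so loosen or strengthen the expanding wall. Thhalv10022920m.g had 0 and 9 reads, and its hit AT2G14900 encodes a gibberellin-regulated peptide of the GASA family, small secreted proteins rich in cysteine. Both loci are short, 1057 bp on scaffold 4 and 875 bp on scaffold 11. The neighbours of the XTH16 gene within 10 kb, Thhalv10002448m.g with 4 and 4 reads and Thhalv10002394m.g with 11 and 6, had reads in both libraries, while no other detected gene lay within 10 kb of Thhalv10022920m.g.

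Thhalv10000513m.g, with the hit 4CL5, had no SH read and 7 YK reads on a locus of 1029 bp on scaffold 15. The 4CL enzymes activate coumarate and related acids with coenzyme A at the branch that leads to lignin and flavonoids. Thhalv10001976m.g had 0 and 6 reads, and its hit AT2G26310 belongs to the chalcone isomerase fold, as a plastid protein that binds fatty acids in A. thaliana. Thhalv10019628m.g, with the hit SNX2a, had 0 and 6 reads; sorting nexins work with the retromer, which returns receptors and carriers from endosomes. Around this gene 4 of the 5 detected genes within 10 kb had SH reads, among them Thhalv10019191m.g with 16 in SH and 5 in YK and Thhalv10019174m.g with 13 and 10. Thhalv10003141m.g had 0 and 6 reads on a locus of 5924 bp on scaffold 17, and its hit AT5G43560 encodes a TRAF domain protein that in A. thaliana takes part in the turnover of immune receptors. Its neighbour Thhalv10003303m.g, 729 bp away, had 15 SH and 24 YK reads. Thhalv10001303m.g (hit AT2G45460, an FHA domain protein), Thhalv10002596m.g (hit AT3G24740) and Thhalv10016002m.g (hit AT5G04000) had no SH read, and 6, 6 and 7 YK reads. Close to Thhalv10002596m.g, at 1356 bp, lies Thhalv10002631m.g with 192 SH and 175 YK reads, so the absence of SH reads did not extend to the next abundant gene.

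The other 15 genes with at least 10 YK reads have no name in the sources used here. Thhalv10027552m.g, on scaffold 1 (11906246 to 11908123), had no SH read and 32 YK reads, or 74.1 RPM (interval 50.7 to 105). It was at least 10.7-fold higher in YK against the floor, with a lower 95% bound of the ratio of 8.18. Thhalv10016997m.g, on scaffold 10 (5389751 to 5391923), had 0 and 28 reads, or 64.9 RPM (interval 43.1 to 93.7). It was at least 9.33-fold higher in YK against the floor, with a lower 95% bound of the ratio of 7.10. These genes, the phosphatase gene Thhalv10004207m.g and Thhalv10015718m.g are the 4 of the 83 with 20 or more YK reads. Their intervals overlap in part: that of Thhalv10015718m.g overlaps those of all the others. The neighbour of Thhalv10016997m.g, Thhalv10016908m.g at 63 bp, had no SH read and 1 YK read, whereas Thhalv10025813m.g, 3141 bp from Thhalv10027552m.g, had 7 and 14.

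The remaining 13 unnamed genes of this size had 10 to 16 YK reads. Thhalv10025595m.g and Thhalv10026383m.g, both on scaffold 1, had no SH read and 16 YK reads each. This puts them at least 5.33-fold higher in YK against the floor, with a lower 95% bound of the ratio of 3.86. Thhalv10026383m.g lies 180 bp from Thhalv10026126m.g, which had 39 SH and 43 YK reads. Thhalv10013270m.g and Thhalv10025144m.g had 0 and 15 reads each, as had Thhalv10016781m.g, which has no other detected gene within 10 kb. The nearest neighbour of Thhalv10025144m.g, Thhalv10025611m.g at 238 bp, had no SH read and 3 YK reads, while Thhalv10025342m.g at 672 bp had 26 and 19. Thhalv10003520m.g, with 0 and 13 reads, is the longest locus of the 83 at 9316 bp, and per kb of locus its 1.40 YK reads are far below those of Thhalv10023155m.g, which had the same 13 reads on 1436 bp, or 9.05 per kb. The other unnamed genes from 10 reads upward were Thhalv10006974m.g (14 YK reads), Thhalv10013574m.g (12), Thhalv10013032m.g and Thhalv10024734m.g (11 each), and Thhalv10006952m.g and Thhalv10024939m.g (10 each), all with no SH read.

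**Figure D1:**
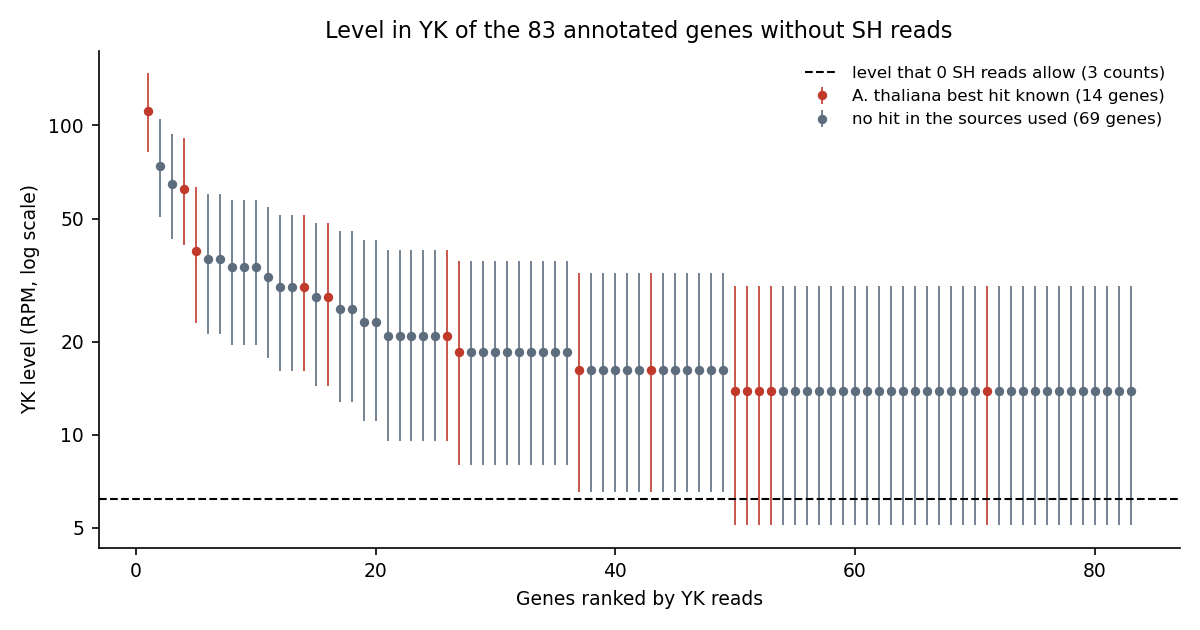
The YK level in RPM (log axis) of each of the 83 genes, ranked by YK reads, with 95% Clopper-Pearson intervals for counting error as bars and the 6.22 RPM that 0 reads allow in SH as a dashed line. The 14 genes with an A. thaliana hit (red) are spread along the ranking, and for the genes with 6 reads at the right the lower ends of the intervals, 5.10 RPM, fall under the dashed line. This line is scaled by the SH total. On reads as deposited, 3 counts are 6.95 RPM in YK, and the intervals of genes with 7 reads, from 6.52 RPM, also start lower than that.

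Most of the 83 genes were close to the minimum of the rule. They had 6 to 48 YK reads with a median of 7, and together 777 reads, or 0.180% of the YK library (interval 0.168 to 0.193%). Exactly 6 reads were found for 34 genes, 7 to 9 for 29, 10 to 19 for 16 and 20 or more for 4. The 4 highest genes held 17.4% of the reads of the set. For the genes with 6 reads the lower 95% bound of the ratio of YK to SH was 1.18. This bound comes from the reads that chose the genes, takes each gene alone and makes no allowance for their choice among 9163 annotated genes with at least 6 YK reads. With 10 reads the bound was 2.24, and with 17 reads, as for the sulfotransferase gene, it was 4.13. Just outside the rule lay 51 annotated genes with 5 YK reads and none in SH. On reads as deposited their lower bound, 0.916, includes equal reads, but scaling by total reads would multiply this bound by 1.117. On the other side lay 148 annotated genes with 1 SH read and at least 6 YK reads, with a median of 7 YK reads and a maximum of 244, of which 37 had at least 10.

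To set these genes against the whole table, annotated genes were grouped by their number of reads in one library. Of the 9163 annotated genes with at least 6 YK reads, 1.03% had no SH read with the set-aside genes included, and the 83 genes are 0.906%. No SH read was found for 40.3% of the genes with 1 YK read, 5.77% of those with 5 and 4.43% of those with 6. The share then fell to 2.13% at 7 reads, 1.32% at 9 and 0.680% at 10, and it was 0.260% over the 3839 genes with 20 or more. In the opposite direction, the share of genes with no YK read was 36.8% at 1 SH read, 3.79% at 6, 1.15% at 10 and 0.288% over the 3824 genes with 20 or more. Both shares were highest at 1 read and were 2.13% and 2.47% at 7 reads, and no test of their difference was made.

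**Figure D2:**
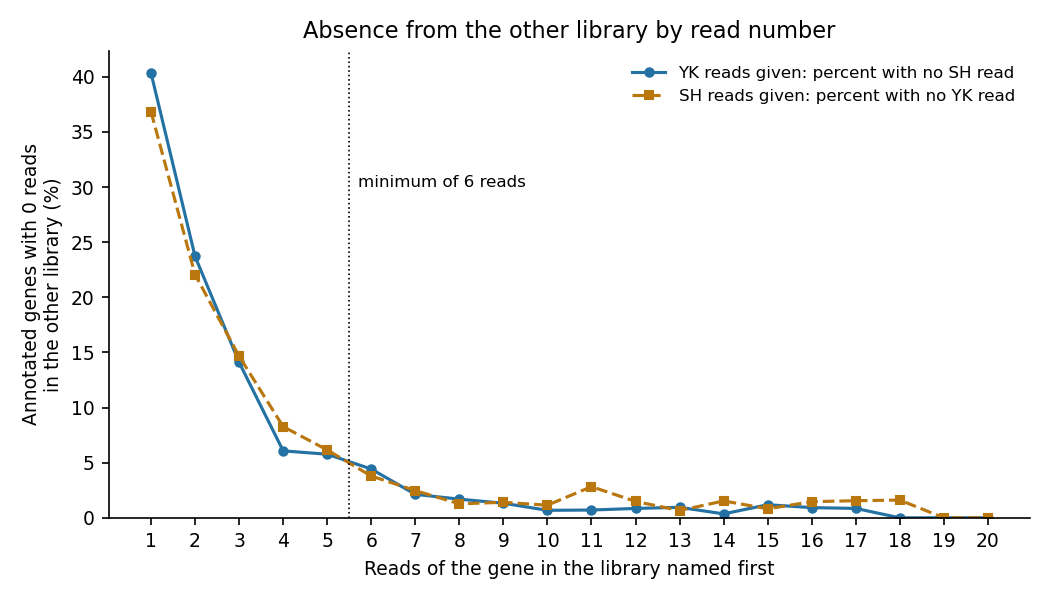
The percent of annotated genes with 0 reads in the other library (vertical axis) by the number of reads in the library named first (horizontal axis), for YK reads (blue circles) and SH reads (orange squares). Both lines start near 40% at 1 read and lie under 5% from 6 reads on, where the dotted line marks the minimum of the rule.

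Under the mirrored rule, 108 annotated genes had at least 6 reads in SH and none in YK, which is 1.2% of the 9025 annotated genes with at least 6 SH reads. The 94 genes with reads only in YK had a median of 7 reads and a maximum of 83, while those 108 had a median of 9 and a maximum of 179. From 10 reads upward there were 30 in YK, or 0.448% of the 6695 annotated genes with at least 10 YK reads. In SH there were 49, whose share was not counted, so these numbers are not compared. The ratio of the 94 to the 108 genes was 0.870 (counting interval 0.653 to 1.16) and rests on the minimum, since SH has more reads on genes. With the minimum in SH raised to 7 reads, the nearest to an equal RPM, 79 genes were seen only in SH. The ratio of YK-only to SH-only genes then moved to 1.19.

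The genes around the 83 were mostly read in both libraries. Within 10 kb of them, measured from locus end to locus end, the table lists 280 other genes with reads, and these lie near 76 of the 83 genes. The other 7 have no detected gene so close. Of the 280 neighbours, 235 or 83.9% had reads in both libraries, 26 had none in YK and 19 had none in SH. The shares read in both and without YK reads were not counted over the whole table here. Neither the 83.9% nor the 26 is therefore read as particular to these neighbours. The 19 neighbours without SH reads had at most 3 YK reads, so none was near the minimum of 6 reads, and none of the 280 was itself one of the 83 or of the 11 set-aside genes. The neighbours had medians of 7 reads in SH and 6 in YK, and 4379 and 4604 reads in all. No SH read was found for 6.79% of the neighbours (interval 4.13 to 10.4%), against 8.87% of the 14313 genes within 10 kb of any annotated gene with at least 6 YK reads. For 74 of the 83 genes at least 1 neighbour had SH reads. The 9 others were the 7 genes without a detected neighbour, among them Thhalv10016781m.g, and Thhalv10016997m.g and the phosphatase gene Thhalv10004207m.g, whose single neighbours had no SH read and 1 and 2 YK reads. Genes with many SH reads seldom lacked YK reads anywhere in the table. Over all annotated genes, no YK read was found for 1.15% at 10 SH reads and 0.288% at 20 or more. Of the 101 neighbours with at least 10 SH reads, 100 had YK reads as well. The exception was XLOC_008741, a locus outside the reference annotation with 20 SH reads and no YK read, which lies 9023 bp from Thhalv10028225m.g with its 6 YK reads and no SH read.

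**Figure D3:**
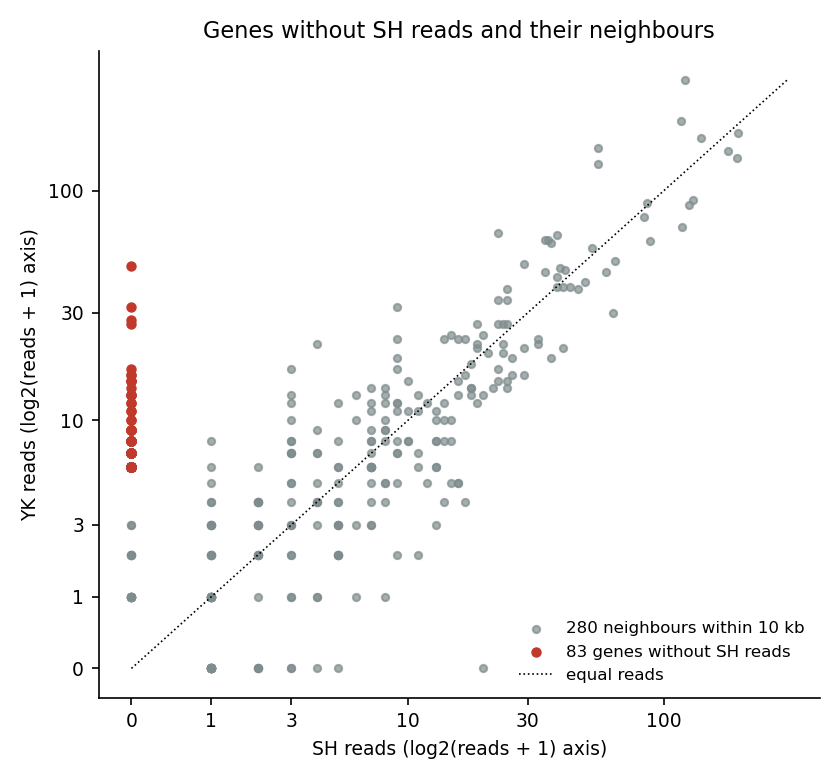
Reads in SH (horizontal) and YK (vertical), both on log2(reads + 1) axes with tick marks in reads, for the 83 genes (red) and for the 280 genes within 10 kb of them (grey), with equal reads as a dotted line. The red points stand at 0 SH reads from 6 to 48 YK reads, while the grey points follow the dotted line and reach at most 3 YK reads at 0 SH reads.

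Among the SH-only genes of the mirrored rule, 8 had another of them within 10 kb, whereas none of the 94 YK-only genes had another YK-only gene that close; this difference was not tested. Of the 267 neighbours of the SH-only genes, 36 or 13.5% had no YK read, and 13 of these had at least 4 SH reads. The same share near all annotated genes with at least 6 SH reads was not counted, so the 13.5% stands without its background. The closest pair among the 83 genes, Thhalv10025288m.g and the acid phosphatase gene Thhalv10025999m.g on scaffold 1, were 11.7 kb apart, and the next, Thhalv10004359m.g and Thhalv10004584m.g on scaffold 6, 21.9 kb. Only 7 consecutive pairs lay within 100 kb of each other, and the median distance between consecutive genes of the set on a scaffold was 857 kb.

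The 83 genes lay on 18 of the 32 scaffolds that carry annotated genes with at least 6 YK reads. Apart from scaffolds 16 and 20, the scaffolds without any of them carry at most 16 such genes each. Scaffold 1 held 13 of them, scaffold 6 held 11 and scaffold 2 held 10. These scaffolds also carry many genes: the 13 on scaffold 1 are 1.19% of its 1094 annotated genes with at least 6 YK reads, the 11 on scaffold 6 are 1.39% of 790 and the 10 on scaffold 2 are 0.814% of 1229. Among the scaffolds with at least 3 of the genes, the share was highest on scaffold 11, with 4 of 189 or 2.12%, and on scaffold 8, with 4 of 224 or 1.79%. Over all scaffolds it was 0.906%. With the set-aside genes included, scaffold 11 held 6 and scaffold 3 held 5 in place of 2. The differences between scaffolds rest on few genes and were not tested. Scaffold 16 held none of the set among its 378 such genes.

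**Figure D4:**
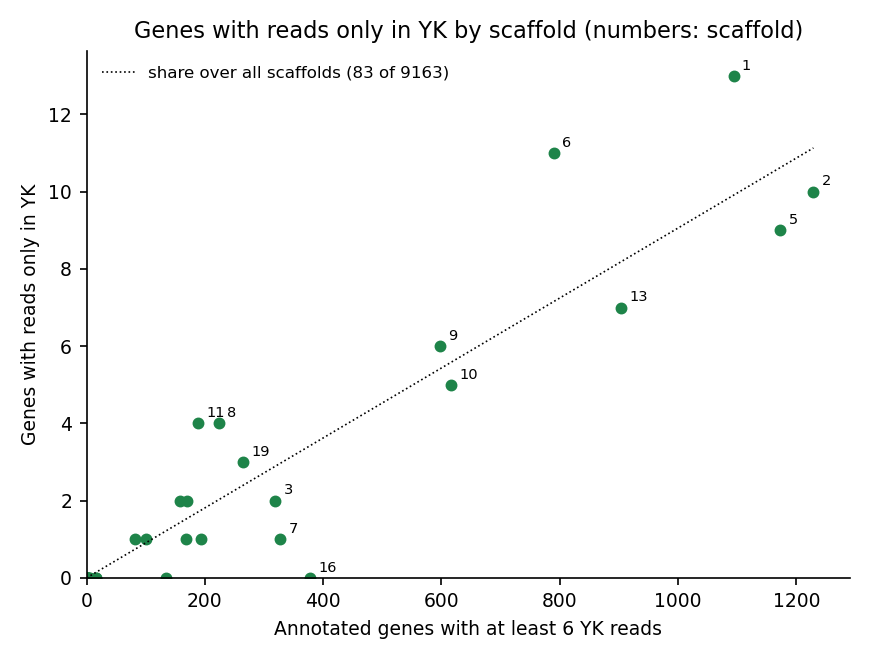
The number of the 83 genes on each scaffold (vertical axis) against the number of annotated genes with at least 6 YK reads on it (horizontal axis), with the share over all scaffolds as a dotted line. Scaffold 1 with 13 and scaffold 6 with 11 lie above the line, and scaffold 16 lies at 0.

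The length of the loci was set beside that of the background. Their median was 2359 bp, with quartiles of 1432 and 3090 bp, and the median of all annotated genes with at least 6 YK reads was 2283 bp, with quartiles of 1630 and 3171 bp. Under 1000 bp were 9 of the 83 loci, or 10.8%, against 7.58% of the background and 24.1% of the SH-only genes, whose median was 1840 bp. Per kb of locus, introns included, the 83 genes had a median of 3.58 YK reads and a range from 0.961 to 20.7, against a median of 7.39 for the background, whose median was 16 YK reads per gene. Genes with few reads met the rule more often, as the shares by read number show, so nothing is read from this lower density. The locus of another gene in the table overlaps 4 of the 83 loci, or 4.82%, against 6.54% of the background. The overlapped genes had 6 or 8 YK reads, and Thhalv10013558m.g, with 0 and 6 reads, overlaps Thhalv10015110m.g with 33 SH and 23 YK reads. The counting left out reads that fall on 2 genes and did not use strand, so the reads of these 4 genes are uncertain.

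The families of the hits were followed in 9 lists of 80 A. thaliana genes. Each list was built around the hit of 1 of the 83 genes, so finding these 9 genes was fixed in advance and shows no enrichment. Of the list genes, 15 had a hit in the named part of the table, and 9 of these were among the 83 genes. Among the other 6, 2 had at least 10 reads over both libraries, and neither differed by 2-fold. XTH4 (Thhalv10002626m.g), another xyloglucan enzyme gene, had 153 SH and 285 YK reads, a log2 ratio of 0.90 with 0.5 reads added to each count. The cystatin gene Thhalv10001076m.g, with the hit AT5G47550, had 10 SH and 6 YK reads, a log2 ratio of -0.69. Over the table, 10.7% of genes with at least 10 reads had a log2 ratio of at least 1 and 10.7% had one of at most -1. The 4 list genes with fewer reads were SOT17 (Thhalv10001141m.g), a sulfotransferase of glucosinolate synthesis, with 2 SH and 4 YK reads, SOT12 (Thhalv10002851m.g) with 0 and 1, the lignin methyltransferase gene OMT1 (Thhalv10013896m.g) with 0 and 1, and Thhalv10017121m.g, with the acid phosphatase hit AT2G38600, with 1 and 0. For the families of the GASA, TRAF, sorting nexin and chalcone isomerase fold genes, no further member was found among the named genes.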

How the data were processed

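RNA was measured by pyrosequencing in 1 library of each accession. Per the methods, reads were trimmed, aligned by the authors to the Phytozome genome of SH and kept where they mapped uniquely; the methods name GMAP as the aligner, the submitters' processing notes GSNAP. The deposited counts are raw reads per gene, made by the authors with HTSeq 0.5.4p5 (union mode, strand not used); Cufflinks assemblies of both libraries had been merged, and bedtools 2.17.0 was used to find the loci outside the annotation. The authors' fold ratio, p-value and adjusted p-value columns, which the authors made with DESeq 1.14.0, were not used, and 1 blank row was left out. Unique mapping drops reads shared by near-identical copies, and reads without molecular identifiers are not independent molecules, so intervals and floors cover counting error only.

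Genes were selected with pandas 2.3.3, intervals (95%, Clopper-Pearson) computed with scipy 1.17.1 and TMM factors with edgeR 4.0.16. RPM are reads in every 1000000 of the 482275 SH or 431705 YK reads on genes. The code for the selection and the neighbour counts was checked on simulated data, which says nothing about how reliable the chosen genes are. Named were all genes with at least 10 YK reads, all with an A. thaliana hit, and neighbours and list genes with reads. The genes and lists were chosen with earlier results of these data known. Hits and symbols came from the part of the supplementary gene table used here; no gene ID matched the RefSeq gene table, and promoters and proteins were not used here. Alternatives were other read minimums, scalings and windows.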

Additional observations from a re-analysis of the deposited data

How the results depend on the processing

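The number of genes depended on the read limits. With the 11 set-aside genes left out, 195 annotated genes had reads only in YK with a minimum of 4 YK reads, 20 with a minimum of 10, and 231 when 0 or 1 SH reads were allowed, against 83 in the text. With those 11 genes included, the share of annotated genes without SH reads was 1.86% with a minimum of 4 YK reads and 0.448% with a minimum of 10, and the ratio of YK-only to SH-only genes was 1.19 with minimums of 6 YK and 7 SH reads. Scaling by total reads multiplies every fold of YK to SH by 1.12 and TMM by 0.983. With 0 SH reads the counting interval of a fold has no upper end, so these changes could not take any of the 29 named genes out of it. Windows of 5 and 20 kb gave 8.50% and 7.53% of neighbours without SH reads, and the median locus of genes with at least 10 YK reads was 2574 bp; both lay within the interval or the quartiles of the main value. The comparison of close copies among reference proteins was not run, since no protein sequence was used here. No paired analysis was possible because each accession has 1 library. For genes with 6 YK reads, the depth and the choice of genes by these same reads leave the size of the ratio unsettled.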
